A study of Mus musculus with 2 samples.

Results

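The insulin-like growth factor binding proteins were represented by 6 genes, Igfbp2, Igfbp3, Igfbp4, Igfbp5, Igfbp6 and Igfbp7, taken by symbol from the 31053 genes of the deposited matrices; all 6 symbols were found. Their raw UMI counts (unique molecular identifiers, 1 for each captured transcript) were followed through the cell classes of 2 single-cell libraries. Igfbp5 and Igfbp6 were fibroblast genes in these cells, Igfbp3 and Igfbp7 were highest in blood endothelium, Igfbp4 was present in fibroblasts and in T cells, and Igfbp2 had no UMI.

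The libraries held cells from mouse pancreas after pancreatitis, sorted into an EYFP positive and an EYFP negative fraction. The mice carried R26[CA]30EYFP, with C57Bl/6J as the strain background of both libraries, so the EYFP negative cells hold the reporter allele too. In this allele a repeat of 30 CA units precedes the EYFP coding sequence, and the reporter is known to become readable after replication errors in the repeat, so that labelled cells and their descendants fluoresce. The treatment field of both labels reads "None", and the number of animals, their age and the time after pancreatitis were not given in the sources used here. With 1 library a group there was no replicate and no test: intervals below are exact 95% intervals of the counts, cover counting error only, and say nothing of the spread between animals.

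Binding proteins of this family hold IGF1 and IGF2 outside the cell, which keeps the ligands from the IGF1 receptor or prolongs their life until proteases release them. IGFBP3 and IGFBP5 carry most IGF in serum together with the acid labile subunit, IGFBP4 is the classical substrate of the protease PAPP-A, and IGFBP6 prefers IGF2. IGFBP7 binds IGFs weakly and is a secreted protein of vascular basement membranes. In connective tissue, fibroblasts are a known source of both IGF1 and several of these proteins.

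The genes lie on 4 mouse chromosomes (GENCODE M21 annotation of GRCm38). Igfbp2 (ENSMUSG00000039323, plus strand) spans chr1:72824503-72852474 and Igfbp5 (ENSMUSG00000026185, minus strand) spans chr1:72857932-72874884, with 5458 bases between them. Igfbp3 (ENSMUSG00000020427, minus strand) spans chr11:7206086-7213923, and Igfbp4 (ENSMUSG00000017493, plus strand) spans chr11:99041244-99054392 on the same chromosome. Igfbp6 (ENSMUSG00000023046, plus strand) spans chr15:102144362-102149511. Igfbp7 (ENSMUSG00000036256, minus strand) spans chr5:77349240-77408041 and is the one member that overlaps other genes, Polr2b and Gm34648 on the opposite strand. Igfbp2 and Igfbp5 are thus neighbours in the genome, and only Igfbp5 of this pair had UMIs.

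The 100 bases before the RefSeq start of each detected member (GRCm38.p6, gene strand, 5′ to 3′) are shown because the members divide between cell classes, and so that their promoters can be set side by side. Capitals mark matches, on either strand, to the 2 motifs searched, TATAAA (the core of a TATA box) and GGGCGG (a GC box).
Igfbp3: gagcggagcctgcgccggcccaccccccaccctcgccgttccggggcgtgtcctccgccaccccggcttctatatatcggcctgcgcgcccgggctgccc
Igfbp7: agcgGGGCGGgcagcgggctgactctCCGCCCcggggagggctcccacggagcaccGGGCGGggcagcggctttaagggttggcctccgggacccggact
Igfbp5: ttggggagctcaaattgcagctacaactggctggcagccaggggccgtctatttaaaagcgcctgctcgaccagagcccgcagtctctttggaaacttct
Igfbp6: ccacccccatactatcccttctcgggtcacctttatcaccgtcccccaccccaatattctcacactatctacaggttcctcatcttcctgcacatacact
Igfbp4: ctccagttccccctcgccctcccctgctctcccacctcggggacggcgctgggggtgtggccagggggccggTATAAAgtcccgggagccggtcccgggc
Igfbp4 held 1 TATAAA, which begins 28 bases before the start, and Igfbp7 held 3 matches to GGGCGG. Of 32851 promoters of this length, 5.56% held TATAAA and 24.7% held GGGCGG. The endothelial pair had a GC content of 77% each, against 55% for Igfbp5 and 51% for Igfbp6, the fibroblast pair, and 75% for Igfbp4. The RefSeq start of Igfbp6 lies upstream of the GENCODE start given above, and those of Igfbp5 and Igfbp7 also differ from GENCODE's. A match is a description of these letters and not a binding site.

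Of 1717 deposited barcodes in the EYFP positive library, against 745 in the EYFP negative one, 860 and 553 cells passed a minimum of 200 genes and a maximum of 20% mitochondrial UMIs. They held 2745342 and 4857210 UMIs in the EYFP positive and EYFP negative libraries. The EYFP positive cells were shallower, with a median of 1008 UMIs against 8020 in EYFP negative cells, and 49.7% of them had under 1000 UMIs. Acinar secretory transcripts made up 4.41% of the EYFP positive UMIs and 0.107% of the EYFP negative UMIs, and reached cells of every class. Of the barcodes, 4 occurred in both libraries, 2 of them among kept cells. Clustering without the 6 Igfbp genes gave 64 and 6 fibroblast-like cells in the EYFP positive and EYFP negative libraries, 58 and 11 blood endothelial-like, 222 and 2 ductal-like (ductal or metaplastic epithelium), 87 and 1 acinar-like, 231 and 389 T-like, 32 and 14 NK-like, 112 and 106 B-like, and 17 and 10 macrophage-like cells (macrophages or monocytes). An erythroid-like class held 1 EYFP positive and 13 EYFP negative cells, with 1 Igfbp UMI, of Igfbp3, in the EYFP negative cells. All 11 fibroblast markers and all 11 blood endothelial markers were detected in their classes in both libraries. The EYFP negative fibroblasts, endothelium and epithelium rest on very few cells.

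**Figure D1:**
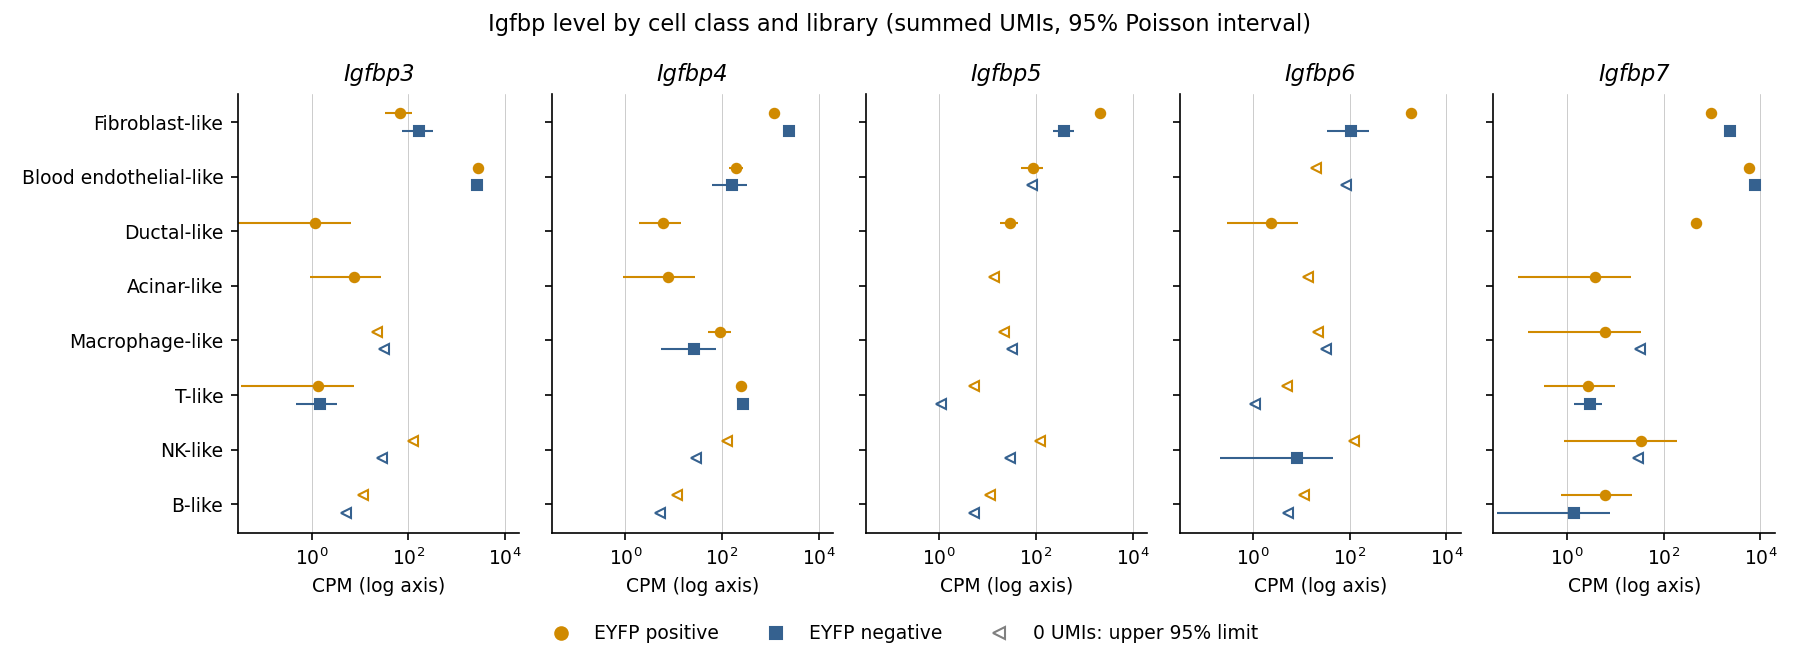
Level of each detected Igfbp gene (CPM, the class's UMIs of the gene scaled to counts per 1000000 UMIs, log axis) in each cell class with at least 6 cells, in the EYFP positive library (circles) above the EYFP negative one (squares). Erythroid-like cells are not shown. Bars are 95% Poisson intervals, and open triangles mark the upper 95% limit where no UMI was found. Igfbp6 stands at 1844 CPM in EYFP positive fibroblast-like cells, and Igfbp7 reaches 5744 CPM in EYFP positive and 7902 CPM in EYFP negative endothelial-like cells.

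Igfbp2 had 0 UMIs among all kept cells and also among the barcodes left out, in both libraries. A count of 0 allows up to 1.09 CPM in the EYFP positive library, against 0.618 CPM in the EYFP negative one, taking 3 UMIs as the floor. IGFBP2 is known mainly from liver, brain and developing tissues. At this depth it was not detectable in any cell class.

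Igfbp6, which encodes the IGF2-preferring binding protein, was close to specific for fibroblasts. In fibroblast-like cells it had 306 UMIs in the EYFP positive library, or 1844 CPM (1643 to 2063), in 49 of 64 cells, and 5 UMIs in the EYFP negative library, or 106 CPM (34.3 to 246), in 3 of 6 cells. Outside fibroblasts 3 UMIs were found in all, 2 in EYFP positive ductal-like cells and 1 in an EYFP negative NK-like cell. No UMI was found in the 69 endothelial-like cells or the 620 T-like cells.

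Igfbp5, whose product binds IGFs and matrix, followed the same class. Fibroblast-like cells held 349 UMIs in the EYFP positive library, or 2103 CPM (1888 to 2336), in 40 of 64 cells, and 18 UMIs in the EYFP negative library, or 380 CPM (225 to 601), in 3 of 6 cells. A second, much lower level lay in ductal-like cells, with 24 UMIs (28.8 CPM, 18.4 to 42.8) in the EYFP positive library, against 1 UMI in the EYFP negative library. All 24 came from 10 of the 30 EYFP positive ductal-like cells with at least 5000 UMIs. Endothelial-like cells held 16 UMIs in the EYFP positive library, against 0 in the EYFP negative one. All 16 lay in 1 cell of 11030 UMIs that carried 113 UMIs of Myh11, 107 of Acta2 and 6 of Rgs5, genes of smooth muscle and pericytes, and none of the endothelial genes Plvap and Pecam1. Apart from that cell no endothelial-like cell had an Igfbp5 UMI. It was not the only cell of the class with Rgs5 and without Plvap and Pecam1. An EYFP positive cell of 2156 UMIs had 8 Rgs5 UMIs and an EYFP positive cell of 1585 UMIs had 5.

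Igfbp4, the PAPP-A substrate, was highest in fibroblasts but not limited to them. Fibroblast-like cells held 201 UMIs in the EYFP positive library, or 1211 CPM (1050 to 1391), in 33 of 64 cells, and 117 UMIs in the EYFP negative library, or 2470 CPM (2043 to 2961), in 6 of 6 cells. T-like cells came next, at 247 CPM (212 to 286) in the EYFP positive library, against 271 CPM (254 to 289) in the EYFP negative library. Endothelial-like cells stood at 196 CPM (137 to 271) in the EYFP positive library, against 157 CPM (63.2 to 324) in the EYFP negative library, intervals that overlap those of T-like cells. Of the 36 EYFP positive UMIs there, 10 lay in the cell of 11030 UMIs with Myh11 and Acta2 described for Igfbp5. Macrophage-like cells followed with 15 UMIs (90.7 CPM, 50.8 to 150) in the EYFP positive library, against 3 UMIs (26.2 CPM) in the EYFP negative one. B-like and NK-like cells held no Igfbp4 UMI in either library, and EYFP positive ductal-like cells held 5.

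Igfbp7 was the most abundant member in summed UMIs and the most widely spread outside the immune classes. Endothelial-like cells held 1057 UMIs in the EYFP positive library, or 5744 CPM (5403 to 6101), in 51 of 58 cells, and 352 UMIs in the EYFP negative library, or 7902 CPM (7098 to 8772), in 10 of 11 cells. Fibroblast-like cells stood at 946 CPM (804 to 1106) in the EYFP positive library, against 2301 CPM (1890 to 2776) in the EYFP negative one. Ductal-like cells stood at 476 CPM (430 to 525) in the EYFP positive library, in 70 of 222 cells, and 264 CPM (166 to 400) in the 2 EYFP negative cells. In summed UMIs the order endothelium, fibroblast, ductal held in both libraries with no overlap of these intervals. Of the 157 UMIs of EYFP positive fibroblast-like cells, however, 122 lay in 5 cells of a cluster described below. The other 59 cells stood at 300 CPM, below the ductal level. Thinned to 500 UMIs, the EYFP positive intervals of fibroblast-like cells (239 to 734 CPM) and ductal-like cells (235 to 459 CPM) overlapped. T-like cells, with free RNA of the same suspension, gave 2 UMIs in 231 EYFP positive cells and 10 UMIs in 389 EYFP negative cells, so the ductal share of 31.5% (25.5 to 38.1) of EYFP positive cells lies above that background. Polr2b and Gm34648 overlap Igfbp7 on the other strand, and whether counting used the strand was not given in the sources used here.

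Igfbp3, the main IGF carrier of serum, was the most endothelial member. Endothelial-like cells held 503 UMIs in the EYFP positive library, or 2733 CPM (2500 to 2983), in 27 of 58 cells, and 121 UMIs in the EYFP negative library, or 2716 CPM (2254 to 3246), in 9 of 11 cells. They held 97.1% of all its EYFP positive UMIs. Fibroblast-like cells came second with 11 UMIs (66.3 CPM, 33.1 to 119) in the EYFP positive library, against 8 UMIs (169 CPM, 72.9 to 333) in the EYFP negative library. All 8 EYFP negative UMIs came from 1 cell.

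A UMI counts 1 transcript whatever its length, so the members were also added up without length scaling. Summed Igfbp UMIs came to 6171 CPM in EYFP positive and 5426 CPM in EYFP negative fibroblast-like cells, 8760 CPM in EYFP positive and 10775 CPM in EYFP negative endothelial-like cells, and 514 CPM in EYFP positive and 276 CPM in EYFP negative ductal-like cells. The mix differed by class. Igfbp7 and Igfbp3 were 65.6% and 31.2% of the Igfbp UMIs of EYFP positive endothelium, and Igfbp7 alone was 92.5% of those of EYFP positive ductal-like cells. In EYFP positive fibroblasts Igfbp5 and Igfbp6 were 34.1% and 29.9% of the Igfbp UMIs, while in EYFP negative fibroblasts Igfbp6 was 1.95% and Igfbp4 and Igfbp7 were 45.5% and 42.4%. Acinar-like cells, B-like cells and NK-like cells held from 0 to 5 Igfbp UMIs per library over all 6 genes.

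The fibroblast-like cells divided into a pair of clusters at a Leiden resolution of 2.0, still without the Igfbp genes, and the members split between them. One cluster, led by Dcn, Gsn, Col3a1, Clec3b, Mfap5 and Pi16, held 59 EYFP positive and 1 EYFP negative cell and is called Pi16-led here. The other, with Lpl and Col4a1 among its leading genes, held 5 EYFP positive and 5 EYFP negative cells and is called Lpl-led. Pi16 is a marker of adventitial fibroblasts and Lpl encodes lipoprotein lipase. Over both libraries Igfbp6 stood at 2526 CPM in Pi16-led cells against 146 CPM in Lpl-led cells, a ratio of 17.3 (10.1 to 32.0), and Igfbp5 at 2900 against 272 CPM, a ratio of 10.7 (7.16 to 16.6). The other members ran the opposite way. Igfbp4 stood at 595 CPM in Pi16-led cells against 2591 CPM in Lpl-led cells (ratio 0.230, 0.174 to 0.301), Igfbp7 at 298 against 2414 CPM (0.123, 0.0838 to 0.177), and Igfbp3 at 8.50 against 188 CPM (0.0452, on 1 UMI against 18). Thus, over both libraries, 2 members were at least 2-fold higher in Pi16-led cells, where 12.3% of 3526 genes were, and 3 were at least 2-fold lower, where 23.3% of genes were. Since the clusters differ in library, ratios were also taken among EYFP positive cells alone, 59 against 5. There the ratio was 13.9 (7.23 to 30.7) for Igfbp6 and 8.77 (5.32 to 15.5) for Igfbp5. It was 0.220 (0.162 to 0.297) for Igfbp4, 0.121 (0.0805 to 0.177) for Igfbp7 and 0.0421 for Igfbp3, on 1 UMI against 10. The members took no part in the clustering, but genes that move with them did, and these ratios are a description.

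Depth differed between the clusters, so the cells with at least 5000 UMIs were set side by side, 6 Pi16-led cells, all EYFP positive, and 9 Lpl-led cells. In order of depth the Pi16-led cells held 23, 4, 37, 54, 44 and 31 UMIs of Igfbp6. The Lpl-led cells held 0, 0, 2 and 4 in the EYFP positive library, against 0, 1, 0, 2 and 2 in the EYFP negative library. Per cell this is 566 to 4573 CPM in Pi16-led cells against 0 to 263 CPM in Lpl-led cells, with no overlap. Igfbp7 ran the other way, also with no overlap: the Pi16-led cells held 3, 1, 6, 0, 3 and 12 UMIs (0 to 694 CPM). The Lpl-led cells held 21, 35, 21 and 38 Igfbp7 UMIs in the EYFP positive library, against 10, 24, 25, 24 and 26 in the EYFP negative library (1293 to 3552 CPM). For Igfbp5 the Pi16-led cells held 88, 0, 20, 33, 86 and 7 UMIs, and the Lpl-led cells 0, 0, 10 and 0 in the EYFP positive library, against 0, 0, 7, 3 and 0 in the EYFP negative one. Igfbp4 was found in all 15 cells, with 1, 13, 9, 1, 10 and 6 UMIs in Pi16-led cells, and 14, 18, 18 and 62 in EYFP positive and 27, 16, 36, 11 and 26 in EYFP negative Lpl-led cells. The last 2 genes overlapped between the clusters. Of these 6 Pi16-led cells, the one of 7068 UMIs had no Igfbp5, the fewest Igfbp6 UMIs and the most Igfbp4 UMIs, and 5 UMIs of Pi16 against 15 of Lpl. Of 9 markers of pericytes or smooth muscle, 6 were detected in the EYFP positive Lpl-led cells (20 UMIs) and 3 in the EYFP negative ones (15 UMIs). Rgs5, Acta2 and Tagln were at 0. All 64 EYFP positive fibroblast-like cells together held 27 UMIs of these markers, so most of them lay in the 5 Lpl-led cells.

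**Figure D2:**
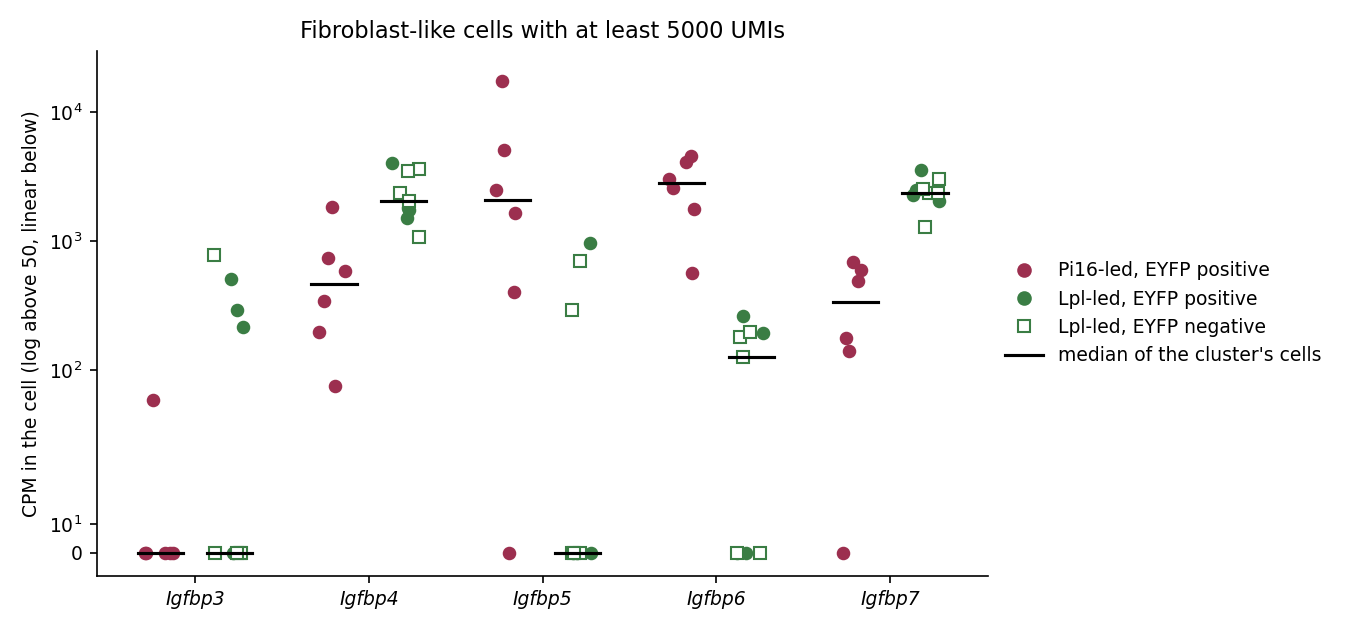
CPM of each Igfbp gene in single fibroblast-like cells with at least 5000 UMIs (axis logarithmic above 50 and linear below), Pi16-led cells (red) left of Lpl-led cells (green), with filled circles for EYFP positive and open squares for EYFP negative cells and a bar at the median. Igfbp6 does not overlap between the clusters (566 to 4573 CPM in Pi16-led against 0 to 263 CPM in Lpl-led cells), nor does Igfbp7 (0 to 694 CPM in Pi16-led against 1293 to 3552 CPM in Lpl-led cells), while Igfbp4 and Igfbp5 do.

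EYFP positive and EYFP negative fibroblasts were compared as a whole class and then within the Lpl-led cluster. Over the whole class Igfbp6 was 17.5-fold (7.40 to 54.2) and Igfbp5 5.53-fold (3.45 to 9.45) the EYFP negative level. Igfbp4 was 0.490-fold (0.389 to 0.621), Igfbp7 0.411-fold (0.320 to 0.530) and Igfbp3 0.392-fold (0.144 to 1.12). So 2 members were at least 2-fold higher in EYFP positive fibroblasts, as were 14.9% of 3526 genes, and 3 were at least 2-fold lower, as were 18% of genes. Igfbp5 did not keep its direction: it was 0.50-fold with cells thinned to 500 UMIs and 1.13-fold as a mean over cells. With each library clustered by itself Igfbp4 was 2.04-fold and Igfbp7 1.63-fold, in an EYFP negative cluster of 25 cells of which 5 were fibroblast-like above. Acinar secretory RNA stood at 12017 CPM in EYFP positive and 42.2 CPM in EYFP negative fibroblast-like cells, and its part in these ratios was not tested. Within the Lpl-led cluster, 5 cells against 5, Igfbp4 stood at 2683 CPM in EYFP positive and 2494 CPM in EYFP negative cells, a ratio of 1.08 (0.832 to 1.39), and Igfbp7 at 2480 and 2344 CPM, a ratio of 1.06 (0.811 to 1.38). Igfbp5 and Igfbp6 had ratios of 1.51 (0.645 to 3.73) and 1.70 (0.512 to 6.46) there, on 16 against 10 and 9 against 5 UMIs. The single EYFP negative cell of the Pi16-led cluster, with 857 UMIs in all, held 8 of the 18 EYFP negative Igfbp5 UMIs and none of Igfbp6. Within the Lpl-led cluster no member had an interval that left out 1, and the Pi16-led cluster had too few EYFP negative cells for a comparison. The part of the cluster mix in the ratios of the whole class was not tested.

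In blood endothelium Igfbp7 was present in every well-covered cell while Igfbp3 varied from absent to very high. Cells with Plvap, the gene of fenestrated endothelium, and at least 3000 UMIs numbered 21 in the EYFP positive library, against 7 in the EYFP negative library. Igfbp3 had a lowest, median and highest count of 0, 9 and 100 UMIs in the EYFP positive cells, and of 1, 8 and 25 UMIs in the EYFP negative cells. It was missing from 4 of the 21 EYFP positive cells and from 0 of the 7 EYFP negative cells. Igfbp7 had 4, 37 and 100 UMIs in the EYFP positive cells, and 13, 45 and 96 UMIs in the EYFP negative cells, with none missing. High counts of the 2 genes did not always fall in the same cell. The cell with 100 Igfbp3 UMIs had 4462 UMIs in all and 30 of Igfbp7, whereas a cell of 8275 UMIs had 1 of Igfbp3 and 75 of Igfbp7, both in the EYFP positive library. The libraries overlapped for both genes.

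**Figure D3:**
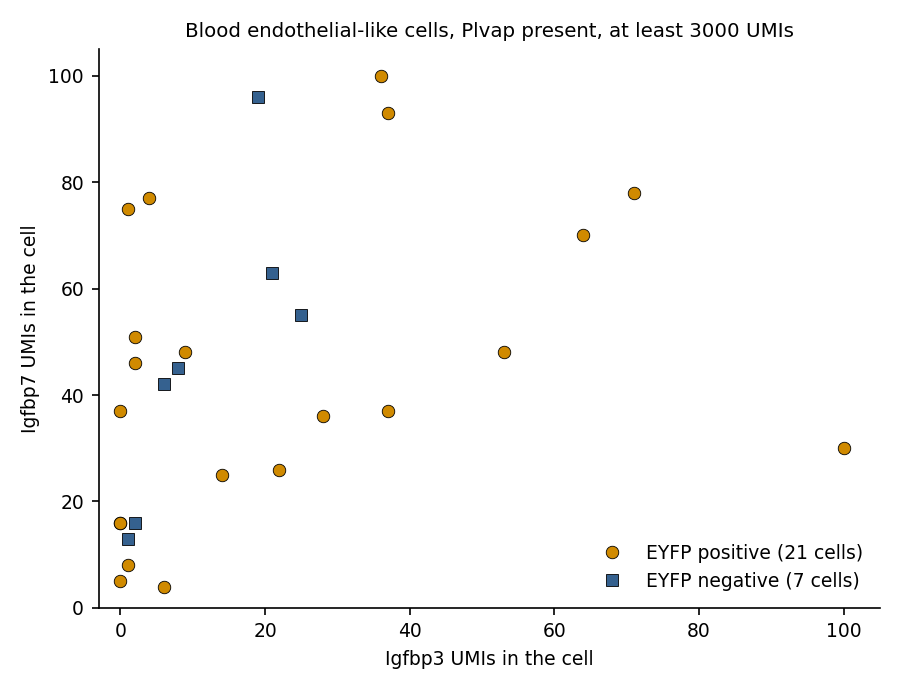
UMIs of Igfbp3 (horizontal) and Igfbp7 (vertical) in single blood endothelial-like cells with Plvap and at least 3000 UMIs, 21 EYFP positive cells (circles) and 7 EYFP negative cells (squares). Igfbp7 is above 0 in every cell, while Igfbp3 runs from 0 to 100 UMIs and is 0 in 4 EYFP positive cells.

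Over all endothelial-like cells Igfbp3 was 1.01-fold (0.824 to 1.24) and Igfbp7 0.727-fold (0.644 to 0.822) in EYFP positive relative to EYFP negative cells, and Igfbp4 was 1.24-fold (0.546 to 3.32). The cell with Myh11 and Acta2 held 10 of the 36 EYFP positive Igfbp4 UMIs. No member was 2-fold higher or lower, where 13.4% of 4088 genes were at least 2-fold higher and 14.2% at least 2-fold lower. With equal weight for each cell, however, Igfbp3 was 0.489-fold when thinned to 500 UMIs and 0.484-fold as a mean over cells, past 2-fold lower. Of the 121 EYFP negative Igfbp3 UMIs, 36 lay in 1 shallow cell of 1430 UMIs, at 25175 CPM in that cell. The part of that cell in these 2 ratios was not tested. With each library clustered by itself Igfbp3 was 11.0-fold and Igfbp7 5.36-fold, in an EYFP negative cluster of 32 cells of which 7 were endothelial-like above. The class joined a cluster of 35 EYFP positive and 2 EYFP negative cells at a median of 767 UMIs with one of 23 and 9 cells at a median of 6081 UMIs. In the deeper cluster alone Igfbp3 had 3447 CPM in EYFP positive and 2841 CPM in EYFP negative cells, and Igfbp7 had 6682 and 8101 CPM, a ratio of 0.825 (0.728 to 0.936). In the shallower cluster Igfbp3 had 353 CPM (198 to 583) in EYFP positive cells and no UMI in the 2 EYFP negative cells. Markers of pericytes or smooth muscle (9 of 9 detected, 402 UMIs in EYFP positive endothelial-like cells, against 1 of 9 and 5 UMIs in EYFP negative cells) and acinar secretory RNA (11118 against 2469 CPM) moved with the library, and their part in these ratios was not tested.

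Igfbp7 in ductal-like epithelium differed between the class's clusters too. In EYFP positive cells it stood at 552 CPM (495 to 615) in the cluster of 28 cells with a median of 16888 UMIs, in 24 cells, and at 275 CPM (211 to 351) in the cluster of 194 cells with a median of 764 UMIs, in 46 cells. The 2 EYFP negative ductal-like cells held 1 and 21 UMIs, at 79.8 and 297 CPM. The ratio of EYFP positive to EYFP negative ductal-like cells was 1.80 (1.17 to 2.91), resting on those 2 cells. In the class, 1 EYFP positive cell of 53707 UMIs had 29481 UMIs of endocrine markers, among them 21498 of Ppy and 7729 of Pyy, peptide hormone genes of the islet, and 3 UMIs of Igfbp7. The other 221 EYFP positive ductal-like cells had 39 endocrine marker UMIs in all, and without that cell the ratio was 1.91 (1.24 to 3.08) and the shallower cluster stood at 341 CPM. Among the 30 EYFP positive ductal-like cells with at least 5000 UMIs, Igfbp7 had a median of 6 and a highest count of 91 UMIs, and 5 cells had none. The Rbpjl-led acinar cluster of 56 EYFP positive cells, by contrast, held no UMI of any member.

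Igfbp4 was the one member at more than a trace in lymphocytes, and there only in T-like cells. It had 178 UMIs in 58 of 231 EYFP positive T-like cells (25.1%, 19.7 to 31.2) and 920 UMIs in 205 of 389 EYFP negative T-like cells (52.7%, 47.6 to 57.8). Median depth was 1190 UMIs in the EYFP positive and 8543 UMIs in the EYFP negative T-like cells. In B-like cells, which give the background, 0 of 112 EYFP positive and 0 of 106 EYFP negative cells had an Igfbp4 UMI, at a median of 1388 UMIs in the EYFP positive and 5602 UMIs in the EYFP negative cells. With each cell thinned to 500 UMIs, which left out no T-like cell, the T-like shares were 9.52% (6.07 to 14.1) in EYFP positive and 13.1% (9.92 to 16.9) in EYFP negative cells. The level was 0.912-fold (0.772 to 1.07) in EYFP positive T-like cells, where 3.32% of 9820 genes were at least 2-fold higher and 8.49% at least 2-fold lower, and no member passed 2-fold.

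Within T-like cells Igfbp4 varied between clusters in both libraries. A deeply covered cluster with Lef1 (a transcription factor of naive T cells) second among its leading genes held 62 EYFP positive and 207 EYFP negative cells. Igfbp4 stood there at 303 CPM (254 to 359) in EYFP positive and 407 CPM (376 to 439) in EYFP negative cells, intervals that do not overlap. The largest EYFP positive T-like cluster, 151 of the 231 cells, had a median of 734 UMIs over all its cells and stood at 216 CPM (147 to 306), and its 3 EYFP negative cells held no Igfbp4 UMI. Lef1 was also among the leading genes of that cluster and of the next one. The cluster led by Cd8b1 and with Dapl1 among its leading genes stood lower, at 149 CPM (81.5 to 250) in 11 EYFP positive and 183 CPM (160 to 208) in 119 EYFP negative cells. The cluster with Ikzf2 among its leading genes, in which Foxp3 (the transcription factor of regulatory T cells) had 6 and 42 UMIs in the EYFP positive and EYFP negative libraries, held no Igfbp4 UMI in 7 EYFP positive cells. Its 60 EYFP negative cells had 47.4 CPM (30.0 to 71.1), with 10 of the 23 UMIs in 1 cell. At a resolution of 2.0 the cluster led by Ccl5 and Nkg7, genes of cytotoxic cells, had 0 Igfbp4 UMIs in 6 EYFP positive and 12 EYFP negative cells, which leaves an upper 95% limit of 76.2 CPM in EYFP positive cells and 27.1 CPM in EYFP negative cells. In the EYFP negative library the intervals of the deeply covered Lef1 cluster and of the Cd8b1 and Ikzf2 clusters did not overlap one another.

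**Figure D4:**
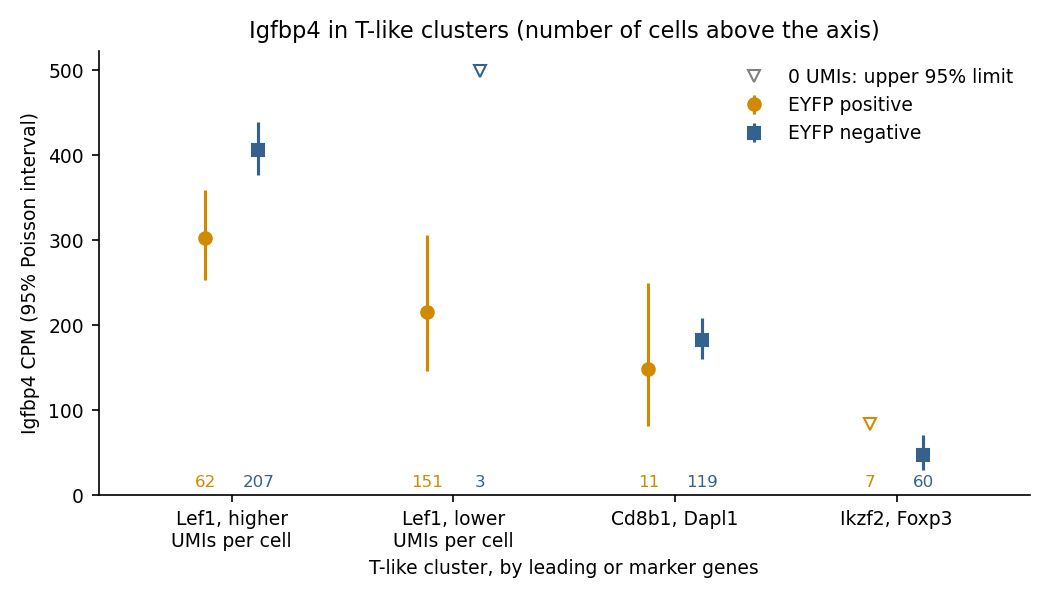
Igfbp4 level (CPM with 95% Poisson interval) in the T-like clusters, EYFP positive (circles) left of EYFP negative (squares), with the number of cells above the axis and open triangles at the upper 95% limit where no UMI was found. EYFP negative cells run from 407 CPM in the deeply covered Lef1 cluster through 183 CPM in the Cd8b1 cluster to 47.4 CPM in the Ikzf2 cluster.

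Over all kept cells most members were higher in the EYFP positive library. Igfbp6 was 90.8-fold (41.3 to 249; 308 against 6 UMIs), Igfbp5 36.2-fold (22.9 to 60.8; 389 against 19), Igfbp3 6.79-fold (5.61 to 8.27; 518 against 135) and Igfbp7 5.80-fold (5.24 to 6.43; 1619 against 494) in the EYFP positive relative to the EYFP negative library. Igfbp4 was 0.740-fold (0.661 to 0.828; 438 against 1047). Thus 4 of the 5 detected members were at least 2-fold higher, where 26.8% of 13282 genes were, and none was 2-fold lower, where 8.06% were. Thinned to 500 UMIs, Igfbp3 was 1.53-fold, Igfbp5 3.43-fold and Igfbp7 3.03-fold, and as means over cells they were 1.58-fold, 7.91-fold and 2.88-fold, so Igfbp3 was then no longer past 2-fold. In such sums fewer cells of a type and less RNA per cell cannot be told apart. The fibroblast-like share was 7.44% (5.78 to 9.40) of the kept EYFP positive cells, against 1.08% (0.399 to 2.35) of the kept EYFP negative ones, that of endothelial-like cells 6.74% against 1.99%, and that of T-like cells 26.9% against 70.3%. The part of the sort, of the depth and of these shares in the folds was not tested.

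**Figure D5:**
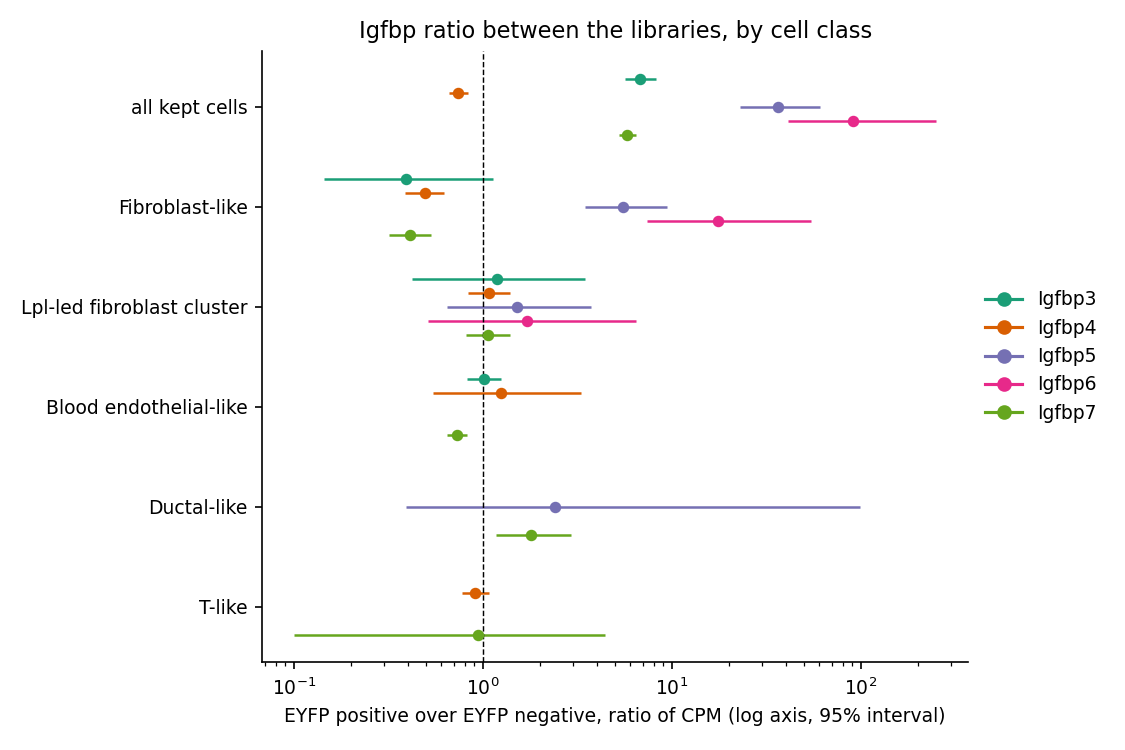
Ratio of CPM between EYFP positive and EYFP negative cells for each Igfbp gene with at least 10 UMIs (log axis, 95% interval, dashed line at 1), over all kept cells and within classes. Igfbp5 and Igfbp6 lie right of 1 and Igfbp4 and Igfbp7 left of 1 in fibroblast-like cells as a whole, while all 5 intervals span 1 in the Lpl-led cluster.

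The rest of the IGF system was read from a list of 46 genes, all in the files, of which 39 had a UMI and 33 had enough UMIs to compare over all kept cells. Of these 33, 19 were at least 2-fold higher in the EYFP positive library, 1 was at least 2-fold lower and 13 were neither, beside 26.8% and 8.06% of all genes higher and lower. Median log2 folds were 3.76 for 3 ligands and insulins, 0.82 for 3 receptors, 0.16 for 11 adaptors and signalling genes, 1.98 for 8 proteases and their inhibitors, and 3.11 for 8 related proteins with an IGF binding domain, beside 0.21 for all 13282 genes. The value for ligands and insulins is that of Ins1, which had no EYFP negative UMI. It was taken against the floor of 3 UMIs and is a lower bound. Within classes the counts were small: 1 higher and 5 lower of 20 in fibroblasts, beside 14.9% and 18% of all genes, and 2 higher and 3 lower of 15 in endothelium, beside 13.4% and 14.2%. In T-like cells 1 was higher and 1 lower of 18, beside 3.32% and 8.49%.

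Among the ligands, Igf1 had 138 UMIs in the EYFP positive and 25 in the EYFP negative library, 9.77-fold (6.35 to 15.6), and Igf2 had 0 in both. Fibroblast-like cells had the highest Igf1 level of the EYFP negative classes, 443 CPM, and 133 CPM in the EYFP positive library, a ratio of 0.299 (0.157 to 0.572). EYFP positive macrophage-like cells stood at 139 CPM and ductal-like cells at 69.5 CPM. Ins2 and Ins1, the insulins of beta cells, had 33 and 23 UMIs in the EYFP positive library, against 1 and 0 in the EYFP negative one. The receptor Igf1r was 3.004-fold (2.43 to 3.73) over all cells. It was highest in ductal-like cells, at 204 CPM in EYFP positive and 300 CPM in EYFP negative cells. Igf2r, which takes up IGF2 for degradation, was 1.08-fold (0.841 to 1.37) and the insulin receptor Insr 1.77-fold (1.32 to 2.37).

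Of the signalling genes, the adaptor Grb2 was 1.00-fold (0.875 to 1.15), the PI3 kinase subunit Pik3r1 1.03-fold (0.883 to 1.19) and the kinase Akt1 1.38-fold (1.11 to 1.71). Foxo1, a transcription factor that insulin and IGF signals keep out of the nucleus, was the single gene of the list at least 2-fold lower, at 0.497-fold (0.418 to 0.588). Within T-like cells it was 0.872-fold (0.690 to 1.09). Among proteases, Klk1, a kallikrein, was 22.8-fold (16.3 to 32.8) with most UMIs in acinar-like cells, and Adamts1 was 8.61-fold (6.78 to 11.0) with 323 of its 404 EYFP positive UMIs in ductal-like cells. Mmp2, a gelatinase, was 3.26-fold (2.28 to 4.69), and all 92 of its EYFP positive UMIs lay in fibroblast-like cells. The lysosomal protease Ctsd was 1.89-fold (1.70 to 2.11).

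Of the related proteins, Esm1, an endothelial proteoglycan, was 4.07-fold (1.68 to 12.8) in endothelial-like cells, at 456 CPM in EYFP positive and 112 CPM in EYFP negative cells. Cyr61, a matricellular protein, was 0.181-fold (0.0962 to 0.332) in fibroblast-like, 0.310-fold (0.178 to 0.545) in endothelial-like and 0.483-fold (0.341 to 0.701) in ductal-like cells, lower in the EYFP positive library in each. Htra3, a secreted protease with an IGF binding domain, stood at 663 CPM in EYFP positive and 1330 CPM in EYFP negative fibroblast-like cells (0.498-fold, 0.362 to 0.691). Over all kept cells the 8 related proteins compared, Cyr61 and Htra3 among them, were each at least 2-fold higher in the EYFP positive library. Crim1 stood at 766 and 920 CPM in EYFP positive and EYFP negative endothelial-like cells. The other genes past 2-fold within a class were named after their values were seen. In EYFP positive fibroblasts Nov was higher, and Grb10 and Pik3r1 were lower besides Igf1, Cyr61 and Htra3. In EYFP positive endothelium Pik3ca was higher besides Esm1, and Adamts1 and Ctgf were lower besides Cyr61. In EYFP positive T-like cells Klk1 was higher and Irs2 lower. Klk1 is 1 of the acinar secretory genes. Their RNA stood at 9231 CPM in EYFP positive and 96.3 CPM in EYFP negative T-like cells, and its part in the Klk1 ratio was not tested.

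Genes with the pattern most like each member were sought over 9 sums of a class in a library, each of at least 20 cells, among 7209 genes. The sums share libraries and depth, and the correlations are a description. Igfbp3 was most like Nrp2 (Pearson r = 0.997), Plpp1, Id1 and Plvap, with the last at 0.985. In Igfbp3 and these genes the EYFP positive endothelial-like sum stood far above the others and largely sets the correlation. Igfbp6 was most like Loxl1 (1.00), Svep1, Pdgfra and Mfap5, and Igfbp5 like Bgn (0.995), Rarres2, C1ra and Lrp1. Among the 9 sums, Svep1, Pdgfra and Mfap5 had UMIs only in EYFP positive fibroblast-like cells, so that 1 sum fixes their correlation with Igfbp6. Igfbp7 was most like Timp3 (0.986), Pls3, Gja1 and Lamb2. Igfbp4 was most like Vps26b (0.958), Itm2a, Mus81 and Agfg1. Of these 4 genes, sums of at least 10 cells kept 0 and a Spearman correlation kept 1. Of the 4 genes of the other members, a Spearman correlation kept 0 for Igfbp3, 2 for Igfbp5, 1 for Igfbp6 and 0 for Igfbp7. Between members the closest pairs were Igfbp5 with Igfbp6 (0.901) and Igfbp3 with Igfbp7 (0.821).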

How the data were processed

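Cells sorted for EYFP were profiled with a 10x Chromium kit, a 5′ v1.1 kit per the labels' protocols. The authors deposited raw UMI counts per gene and barcode; the count matrices carry mouse Ensembl IDs and software version 3.1.0 per the file headers, whereas the submitters' processing notes name Cell Ranger 2.1.0 and GRCh38, and the build used for mapping remains undecided; coordinates here are those of GENCODE M21 and RefSeq for the same genes. Columns left unmapped numbered 0.

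The filter asked for 200 or more genes and no more than 20% mitochondrial UMIs per barcode (medians of 1008 UMIs in EYFP positive and 8020 in EYFP negative cells). Doublets were left in; Scrublet called 2 doublets in EYFP positive cells, 5 in EYFP negative ones, whose removal is one alternative. With scanpy 1.11.5 (Python 3.11.15), counts were scaled to 10000 per cell and logged, 2000 variable genes without the Igfbp genes gave 30 components and 15 neighbours, and Leiden clustering ran at resolution 1.0. A cluster was named "like" the type with most fixed markers among its 10 leading genes, given at least 3 markers at 2-fold with 5 or more UMIs; this naming rule was written after the clusters were seen, since an earlier one by share of markers left a large Spp1 and Clu cluster unnamed. The 37 cells of unnamed clusters enter only the sums over all kept cells.

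UMIs were summed per class and library and given as CPM with exact Poisson intervals; ratios have exact conditional binomial intervals and shares Clopper-Pearson ones, all at 95%. Ratios against 0 UMIs use a floor of 3 UMIs, and no ratio is given where both libraries hold at most 3. Intervals were tested on simulated counts. Genes with at least 10 UMIs form the background of a comparison, and 2-fold is the size used for counts. Named were the 6 members always, the 4 genes most like each (correlation of log2(CPM + 10), at least 100 UMIs), and up to 4 genes with most UMIs from each pathway list. The members and lists were chosen with earlier results of these data known. Alternatives changed the cell filter, resolution, class rule, total, thinning and doublets.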

Additional observations from a re-analysis of the deposited data

Results flagged for a closer look

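Igfbp7 differed in direction between classes: the EYFP positive level was 1.80-fold the EYFP negative level in ductal-like cells (222 against 2 cells), and 0.411-fold in fibroblast-like and 0.727-fold in blood endothelial-like cells. The difference between the classes was not tested, since each group is 1 library.

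Igfbp UMIs also lay in the 857 EYFP positive barcodes that the cell filter left out, above the floor of 3 UMIs: 44 of Igfbp7, 7 of Igfbp3, 6 of Igfbp5 and 4 of Igfbp4. The 192 left-out EYFP negative barcodes held 2 of Igfbp7, 3 of Igfbp3, 0 of Igfbp5 and 3 of Igfbp4. The Igfbp7 UMIs of the EYFP positive library were spread over 25 barcodes, with at most 8 in 1.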

How the results depend on the processing

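No paired analysis was possible because each group is 1 library. The 12 folds were recomputed under the settings that apply to each, from 8 to 15 a fold, of which 4, each for 1 class, were chosen after seeing the data, as was leaving out the endocrine cell from the ductal-like ratio. With each library clustered by itself, Igfbp4 and Igfbp7 reversed in fibroblasts (2.04 and 1.63) and Igfbp7 in endothelium (5.36), and Igfbp5 (41.4), Igfbp6 (72.6), endothelial Igfbp3 (11.0) and T-like Igfbp4 (0.748) moved; there the EYFP negative fibroblast cluster held 25 cells, 5 of them fibroblast-like above, and the endothelial one 32, with 7. Among Lpl-led cells alone, Igfbp4 (1.08) and Igfbp7 (1.06) lay above 1, with Igfbp5 at 1.51 and Igfbp6 at 1.70. Thinned to 500 UMIs, fibroblast Igfbp5 reversed to 0.50, with 8 of 18 EYFP negative UMIs in 1 shallow cell, and at 1000 UMIs, which leaves that cell out, it was 13.9; the other values there were, at 500 and 1000 UMIs, 0.146 and 0.559 for fibroblast Igfbp7, 0.489 and 0.700 for endothelial Igfbp3, 0.828 and 0.641 for endothelial Igfbp7 and 0.697 and 0.716 for T-like Igfbp4, with fibroblast Igfbp4 at 0.656 at 500 UMIs. Over all kept cells, thinning to 500 and 1000 UMIs gave 1.53 and 2.74 for Igfbp3, 0.643 and 0.614 for Igfbp4, 3.43 and 86.1 for Igfbp5, and 3.03 and 2.94 for Igfbp7. As means over cells, all kept cells gave 1.58 for Igfbp3, 0.618 for Igfbp4, 7.91 for Igfbp5 and 2.88 for Igfbp7. Fibroblasts gave 0.353 for Igfbp4, 1.13 for Igfbp5 and 0.186 for Igfbp7, and T-like Igfbp4 was 0.755. Endothelial Igfbp3 was 0.484, with 36 of 121 EYFP negative UMIs in 1 shallow cell. A filter of 500 genes and 10% mitochondrial UMIs gave 64.6 for Igfbp5 overall and 10.4 in fibroblasts, 1.30 for endothelial Igfbp3 and 0.861 for endothelial Igfbp7. Every deposited barcode gave 5.03 for Igfbp3, 0.556 for Igfbp4 and 4.43 for Igfbp7. Without acinar, mitochondrial and ribosomal genes in the total, Igfbp4 was 0.650 and Igfbp7 5.09, and without the cell with most UMIs of the gene 0.660 and 6.76, over all kept cells. Endothelial Igfbp7 was 0.825 with names from summed CPM and in the deeper cluster. Among fibroblasts with at least 5000 UMIs, Igfbp5 was 9.78. Where no cause is named, the cause was not tested. Of all 142 values of folds, 89 stayed inside the interval first given, 47 moved and 6 reversed, and the pathway counts stayed within 1.5 times. Of the genes most like each member, a Spearman correlation shared from 0 to 2 of 4. Sums of at least 10 cells shared 0 for Igfbp4, 2 for Igfbp3, 3 for Igfbp5, 3 for Igfbp7 and 4 for Igfbp6.

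Limits: the EYFP negative levels of fibroblasts, endothelium and epithelium rest on 6, 11 and 2 cells, and no animal-to-animal spread is known. EYFP positive cells had a median of 1008 UMIs and EYFP negative cells one of 8020, so a share of cells with a UMI is set by depth as well as level.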
